A study of Rattus norvegicus with 4 samples.

Results

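Glycogen metabolism in rat liver was followed through 9 genes, chosen by their place in the pathway: *Gys2*, *Gyg1*, *Gbe1*, *Ugp2* and *Pgm1* for synthesis, *Pygl* for breakdown, and *Ppp1r3b*, *Ppp1r3c* and *Ppp1r3g* for the targeting of protein phosphatase 1 to glycogen. Of the 16999 gene symbols analysed in the 4 deposited tables, 8 were members of this set. *Ppp1r3g* had no row in the tables used here and is not analysed. Each of the other members was above a TPM of 2 in all 4 libraries. TPM is a transcript abundance scaled for gene length and for library size, so levels of different genes can be set side by side.

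The rats were wild type and inhaled sevoflurane at 4.5% or desflurane at 6%, both of them halogenated ethers used for general anesthesia. The controls of each agent (sevoflurane 0 h and desflurane 0 h) inhaled it too, and were decapitated at loss of consciousness. The others were kept under the agent for 6 h (sevoflurane 6 h and desflurane 6 h). Strain, age and feeding state are not stated in the labels, and there was no animal that inhaled neither agent. Each group held 1 library, so no value carries a replicate error and no test was made within an agent. Livers of controls and anesthetized rats were also collected 6 h apart, and in any comparison of 6 h with 0 h the time under the agent and the hour of harvest cannot be told apart.

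Glycogen is the branched glucose polymer that hepatocytes build after a meal and break down between meals to keep blood glucose steady. Phosphoglucomutase and UDP-glucose pyrophosphorylase turn glucose phosphate into UDP-glucose, glycogenin starts the chain, glycogen synthase lengthens it and the branching enzyme adds the branch points, while glycogen phosphorylase takes glucose units off. Synthase is active when dephosphorylated and phosphorylase when phosphorylated, and the targeting subunits bring protein phosphatase 1 to the glycogen particle, where it acts on both enzymes. Transcript levels, the only quantity measured here, say nothing of these phosphorylation states.

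The aligned bases implied by the tables ranged from 3.50 to 5.57 Gb, with sevoflurane 0 h the shallowest. The lowest mean coverage of any member was 13.6 per base, for *Gyg1* in sevoflurane 0 h. All 7 hepatocyte markers were present, and their summed TPM ranged from 90139 to 100656. Of the skeletal muscle markers, *Ckm*, *Myh4* and *Mb* were listed at 0 in all libraries. The summed TPM of 5 red blood cell markers was higher at 6 h, at 611 and 1626 in sevoflurane 0 h and 6 h and at 961 and 1807 in desflurane 0 h and 6 h, and its part in the results was not tested. The clock gene *Dbp* stood at 0.40 and 1.92 TPM in the sevoflurane and desflurane controls, and at 87.9 and 44.8 TPM at 6 h. In whole liver, fewer cells of a type and less RNA per cell cannot be told apart.

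*Gys2*, the liver glycogen synthase and the enzyme that sets the pace of glycogen synthesis, was higher at 6 h with both agents. It lies on the minus strand of chromosome 4 (rn6, chr4:176638632-176679805). Its level was 23.2 TPM in sevoflurane 0 h, 74.1 in sevoflurane 6 h, 19.3 in desflurane 0 h and 103 in desflurane 6 h. Both 6 h libraries were above both controls, and the controls lay close together. How many of all genes separate the times in this way was not counted, here or for the genes below. The 6 h level was 3.19-fold the control with sevoflurane and 5.35-fold with desflurane, or changes of 1.63 and 2.36 on the log2(TPM + 1) scale, which understates the change of low genes. Ordered by change among the 8024 genes that averaged a TPM of 2 or more, *Gys2* was at rank 99 from the top with sevoflurane and at rank 42 with desflurane.

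With 1 library a group, calls were made by size alone. A call needed a TPM above 2 in the higher library and a ratio of the libraries above 2. By this rule of size 5.04% of 8270 genes were higher and 3.71% lower with sevoflurane, and 4.1% of 8372 genes were higher and 5.55% lower with desflurane. Of the 8 members, 1 was higher and 1 lower with sevoflurane, and 2 were higher and 1 lower with desflurane. The median change over the members was −0.20 with sevoflurane and −0.16 with desflurane, beside 0.05 and −0.10 over all 8024 genes. Of the members, 6 of 8 changes were negative with either agent. Over all 8024 genes, 3523 changes were negative with sevoflurane and 5000 with desflurane. The genes did not move as a block. Those called were *Gys2* and *Ppp1r3b* with both agents, and *Ppp1r3c* with desflurane alone.

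**Figure D1:**
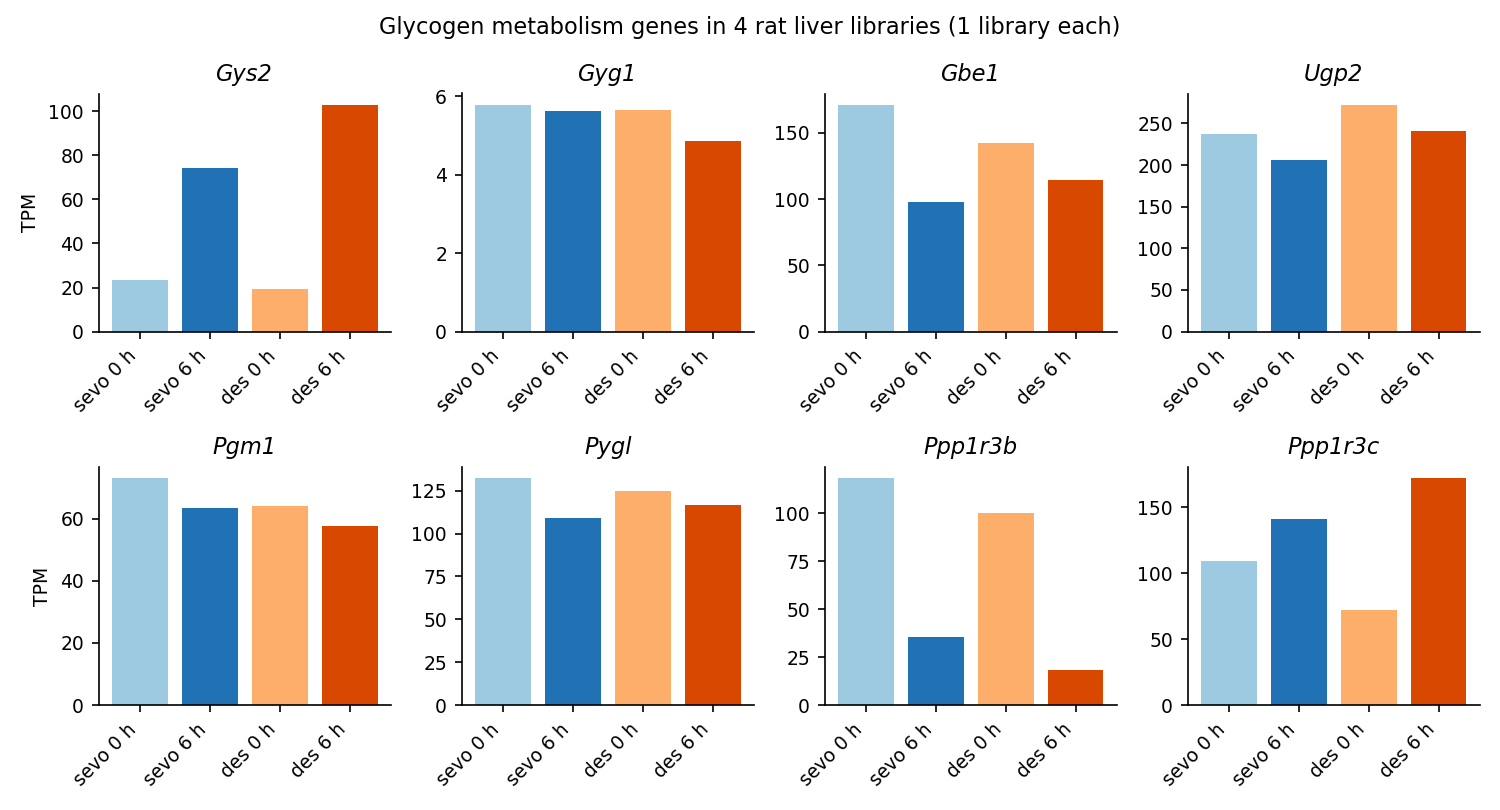
TPM (linear axis from 0, its own scale in each panel) of the 8 glycogen metabolism genes at 0 h and 6 h of sevoflurane (sevo) and desflurane (des), 1 bar a library and no error bars since each group held 1. *Gys2* went from 23.2 to 74.1 and from 19.3 to 103 TPM, *Ppp1r3b* went from 118 to 35.3 and from 99.97 to 18.2, and *Ugp2* stayed between 206 and 272.

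The 250 bases upstream of the *Gys2* start are shown because this was the member with the largest increase with either agent. The sequence is that of RefSeq on the assembly GRCr8 (chr4:177137237-177137486, minus strand), which is not the rn6 build of the deposited coordinates. Capitals mark AGGTCA, the core hexamer that many nuclear receptors bind, which began 80 bases before the start.
Gys2: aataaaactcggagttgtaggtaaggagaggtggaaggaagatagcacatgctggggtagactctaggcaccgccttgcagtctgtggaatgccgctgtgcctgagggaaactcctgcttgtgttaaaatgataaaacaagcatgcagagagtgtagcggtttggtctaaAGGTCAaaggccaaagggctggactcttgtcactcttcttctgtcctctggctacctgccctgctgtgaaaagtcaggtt
This hexamer was present in 14.1% of 33469 rat promoter windows of the same length and in no other member with a sequence. The table held 8 of the 9 members and had no entry for *Ppp1r3b*. A match is a description of letters and not a binding site.

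Glycogenin, encoded by *Gyg1* (rn6, chr2:104916735-104955807, minus strand), primes the new glycogen particle and was the least abundant member. Its level was 5.78 TPM in sevoflurane 0 h, 5.63 in sevoflurane 6 h, 5.64 in desflurane 0 h and 4.85 in desflurane 6 h. The libraries barely differed, with changes of −0.03 and −0.18 (log2). The synthase was above the primer in TPM in each library.

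*Gbe1* encodes the branching enzyme (rn6, chr11:7210169-7485895, plus strand). It was listed at 171 TPM in sevoflurane 0 h, 97.8 in sevoflurane 6 h, 142 in desflurane 0 h and 114 in desflurane 6 h. Both 6 h libraries were below both controls, but the ratios, 1.75-fold lower with sevoflurane and 1.24-fold lower with desflurane, did not reach the rule of size. The changes of the synthase and the branching enzyme thus had opposite signs. There were 7.36 *Gbe1* transcripts for each *Gys2* transcript in sevoflurane 0 h and 7.39 in desflurane 0 h, and 1.32 and 1.11 at 6 h.

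The enzymes that supply UDP-glucose were not called in any comparison. *Ugp2*, UDP-glucose pyrophosphorylase (rn6, chr14:106208176-106248539, minus strand), was the most abundant member of every library, at 237, 206, 272 and 241 TPM in sevoflurane 0 h and 6 h and desflurane 0 h and 6 h, in that order. Its changes were −0.20 and −0.18 (log2), the size of the 0.20 between the controls. *Pgm1*, phosphoglucomutase (rn6, chr5:118743632-118803055, plus strand), stood at 73.1, 63.4, 64.1 and 57.6 TPM in the same order. Its changes of −0.20 and −0.15 were of the size of the control difference, −0.19.

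*Pygl*, the liver glycogen phosphorylase (rn6, chr6:92597759-92643734, minus strand), changed little. It was listed at 132 TPM in sevoflurane 0 h, 109 in sevoflurane 6 h, 125 in desflurane 0 h and 117 in desflurane 6 h. Both 6 h libraries were below both controls by small steps, −0.28 with sevoflurane and −0.09 with desflurane (log2). With *Gys2* higher and *Pygl* nearly level, the TPM ratio of synthase to phosphorylase was 0.176 in sevoflurane 0 h and 0.681 in sevoflurane 6 h, and 0.154 and 0.881 in the desflurane libraries. Phosphorylase transcripts were still the more abundant in each library.

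The targeting subunits moved in opposite directions. *Ppp1r3b*, which encodes the subunit known as GL that targets the phosphatase to glycogen in liver, was lower at 6 h with both agents (rn6, chr16:60415221-60427474, minus strand). Its level was 118 TPM in sevoflurane 0 h, 35.3 in sevoflurane 6 h, 99.97 in desflurane 0 h and 18.2 in desflurane 6 h. The controls were high and close to each other and both 6 h libraries were low, with no overlap. The level was 3.35-fold lower with sevoflurane and 5.50-fold lower with desflurane, changes of −1.72 and −2.40 (log2). Counted from the largest decrease among 8024 genes, *Ppp1r3b* was at rank 43 with sevoflurane and at rank 18 with desflurane.

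*Ppp1r3c*, which encodes the subunit known as protein targeting to glycogen (rn6, chr1:255371830-255376833, minus strand), was higher with desflurane by the rule of size. It was listed at 109 TPM in sevoflurane 0 h, 141 in sevoflurane 6 h, 72.3 in desflurane 0 h and 172 in desflurane 6 h. Both 6 h libraries were above both controls, which were themselves apart by −0.59 (log2, desflurane minus sevoflurane), the widest control difference among the members. The 6 h level was 1.29-fold the control with sevoflurane and 2.38-fold with desflurane, changes of 0.36 and 1.24. With the controls exchanged between agents, the changes were 0.95 for sevoflurane and 0.65 for desflurane, and the desflurane call was lost. The gap between the agents for this gene thus rested on which control was used, and with the exchanged controls the larger change was that with sevoflurane.

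**Figure D2:**
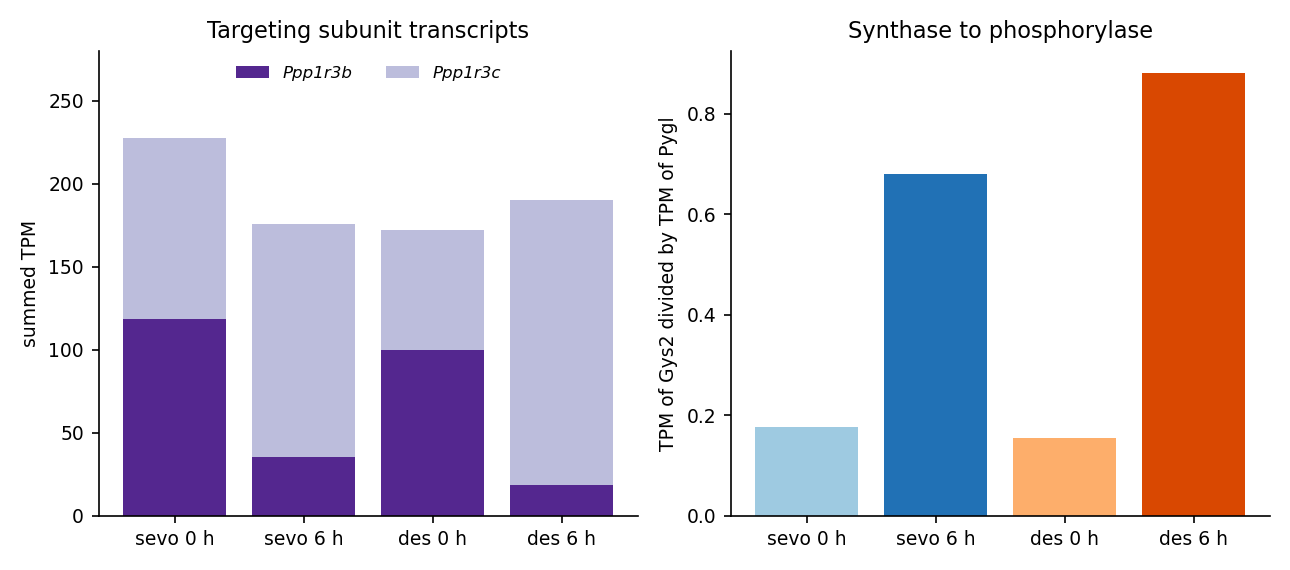
Left, TPM of *Ppp1r3c* (light) stacked on that of *Ppp1r3b* (dark) in each library. Right, the TPM of *Gys2* divided by that of *Pygl*, both axes linear from 0, with 1 library a bar and no error. The summed targeting subunits lay between 172 and 228 TPM while the dark share shrank at 6 h, and the synthase to phosphorylase ratio went from at most 0.176 at 0 h to at least 0.681 at 6 h.

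The sum of *Ppp1r3b* and *Ppp1r3c* was 228 TPM in sevoflurane 0 h, 176 in sevoflurane 6 h, 172 in desflurane 0 h and 190.0 in desflurane 6 h. Its makeup differed between times more than the sum. *Ppp1r3b* made up 52.0% of it in sevoflurane 0 h and 58.0% in desflurane 0 h, and 20.1% and 9.57% at 6 h. For each *Ppp1r3b* transcript there were 0.924 and 0.723 *Ppp1r3c* transcripts in the sevoflurane and desflurane controls and 3.98 and 9.45 at 6 h.

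The windows upstream of *Ppp1r3c* and *Gyg1* are shown because these were the members that held an E-box, CACGTG, the hexamer bound by basic helix-loop-helix factors that include the core clock activators. The *Ppp1r3c* window (GRCr8, chr1:243878528-243878777, minus strand) held it 54 bases before the start, and the *Gyg1* window (GRCr8, chr2:104582778-104583027, minus strand) 99 bases before the start, in capitals.
Ppp1r3c: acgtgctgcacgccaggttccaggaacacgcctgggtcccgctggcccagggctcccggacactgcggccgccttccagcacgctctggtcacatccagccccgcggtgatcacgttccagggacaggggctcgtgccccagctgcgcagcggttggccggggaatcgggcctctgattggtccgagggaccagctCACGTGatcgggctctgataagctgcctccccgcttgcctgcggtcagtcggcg
Gyg1: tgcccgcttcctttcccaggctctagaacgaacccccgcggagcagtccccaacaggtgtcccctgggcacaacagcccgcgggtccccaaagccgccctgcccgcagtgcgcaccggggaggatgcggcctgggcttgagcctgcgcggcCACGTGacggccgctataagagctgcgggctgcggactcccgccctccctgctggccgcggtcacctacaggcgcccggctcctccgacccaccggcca
The E-box was in 5.59% of all 33469 windows. *Ppp1r3c* and *Gyg1* differed in their change, 1.24 against −0.18 with desflurane (log2), although both held the motif. Both windows were rich in G and C (69.2% and 72.4%), beside 49.6% for *Gys2* and a median of 51.2% over all windows. No member window held the D-box TTANGTAA, the glucocorticoid response element (GNACA and TGTNC with 3 bases between them), the FOXO site TGTTTAC or the cAMP response element TGACGTCA, which were in 2.04%, 0.373%, 3.21% and 1.59% of all windows. Both strands were searched and none of these motifs contains another.

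The order of the members by TPM was the same in both controls: *Ugp2*, *Gbe1*, *Pygl*, *Ppp1r3b*, *Ppp1r3c*, *Pgm1*, *Gys2* and *Gyg1*, from high to low. It was also the same in both 6 h libraries: *Ugp2*, *Ppp1r3c*, *Pygl*, *Gbe1*, *Gys2*, *Pgm1*, *Ppp1r3b* and *Gyg1*. *Ugp2* and *Gyg1* kept the first and last places, *Gys2* passed *Pgm1*, and *Ppp1r3b* went below both of them. With 1 library a group, the spread between neighbours in the order could not be measured.

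Between the controls of the agents, where 2.76% of 8263 genes passed the rule in either direction, no member was called, and the member differences were at most 0.59 in size (log2). Between the 6 h livers of the agents, where 3.99% of 8229 genes passed, no member was called either. The widest 6 h difference was that of *Ppp1r3b*, −0.92 (desflurane minus sevoflurane). Each set against its own control, the change with desflurane exceeded that with sevoflurane by 0.73 for *Gys2* and by 0.88 for *Ppp1r3c*, and was lower by −0.68 for *Ppp1r3b*. These differences between agents have no replicate and were not tested.

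**Figure D3:**
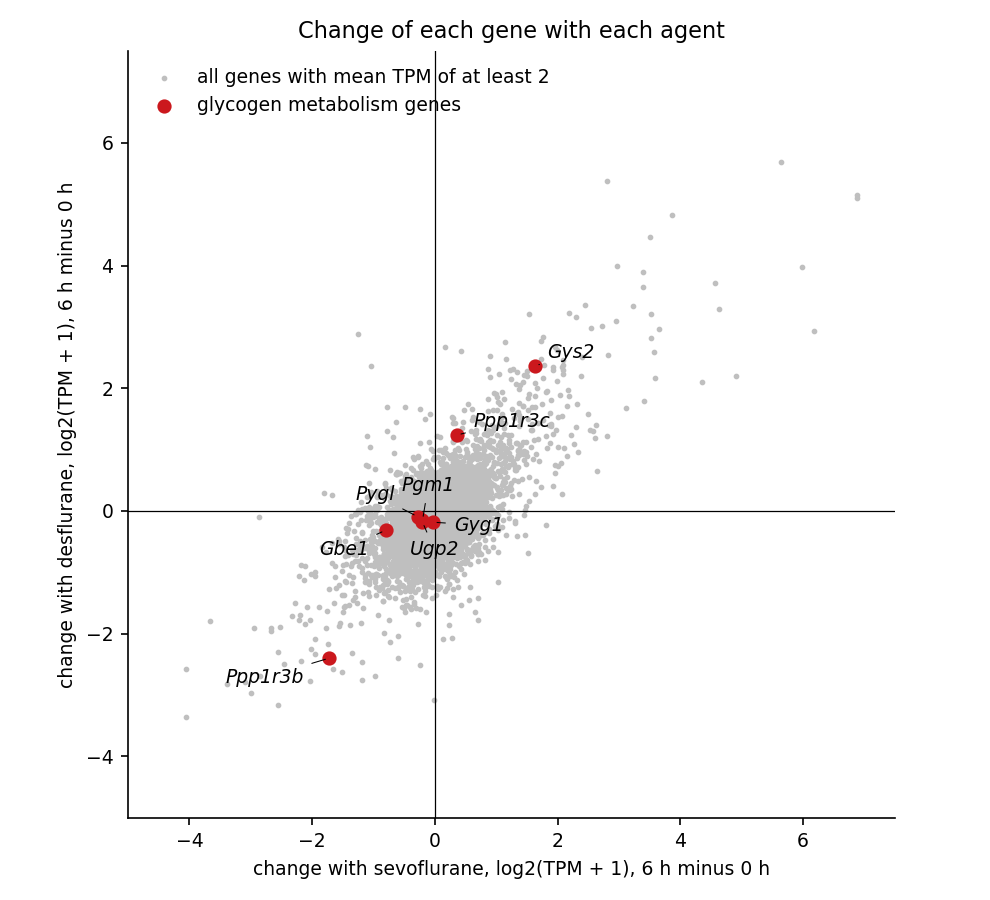
Change of log2(TPM + 1) from 0 h to 6 h with sevoflurane (x axis) and with desflurane (y axis) for the 8024 genes averaging a TPM of 2 or more (grey) and for the 8 glycogen metabolism genes (red, named), 1 library a group. *Gys2* (1.63, 2.36) and *Ppp1r3b* (−1.72, −2.40) lie at opposite ends of the cloud, and *Ugp2*, *Pgm1*, *Pygl* and *Gyg1* lie near its centre.

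A change common to both agents could be tested by treating them as a pair of repeats of 6 h against 0 h, with limma over 8024 genes, a block for the agent and 1 degree of freedom left for the residuals. The test is two-sided with Benjamini-Hochberg adjustment. Its residual holds the gap between the agents and no spread between animals of a group. The standard error (SE) was moderated by eBayes toward a trend over all genes, with 10.9 prior degrees of freedom beside 1 residual. It therefore comes mostly from other genes and does not measure how far the agents differ for a given gene. By this test 4.69% of genes were higher and 3.94% lower at an adjusted p below 0.05, and 2 members were higher and 2 lower. *Gys2* rose by 2.0 ± 0.18 (log2, SE, limma adjusted p = 2.12e-05) and *Ppp1r3b* fell by 2.06 ± 0.18 (limma adjusted p = 1.18e-05). *Ppp1r3c* rose by 0.80 ± 0.18 (limma adjusted p = 0.0151) and *Gbe1* fell by 0.56 ± 0.15 (limma adjusted p = 0.0346). Over 7 alternative settings the adjusted p of *Gys2* and *Ppp1r3b* stayed below 0.05, that of *Ppp1r3c* ranged from 0.009 to 0.125 and that of *Gbe1* from 0.0263 to 0.187, so these calls depend on the setting.

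For the members that did not pass, the intervals of the common change rest on the same moderated error. They hold no spread between animals of a group, so they may be too narrow. The 95% interval was −0.48 to 0.10 for *Pygl*, −0.45 to 0.07 for *Ugp2*, −0.49 to 0.13 for *Pgm1* and −0.60 to 0.39 for *Gyg1* (log2). Common changes of the size estimated for *Gys2* and *Ppp1r3b* lie outside each of these intervals.

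The genes whose levels followed those of the called members most closely were sought by the distance between centred log2(TPM + 1) values over the 4 libraries, among 5885 genes averaging a TPM of 5 or more. For *Gys2* the 3 nearest included *Ifrd1*, a transcriptional coregulator (distance 0.190), and *Tdo2*, the hepatic enzyme that opens tryptophan breakdown (0.196). *Ifrd1* was listed at 11.2, 40.3, 11.2 and 53.3 TPM in sevoflurane 0 h and 6 h and desflurane 0 h and 6 h, in that order. For *Ppp1r3b* the 3 nearest included *Tuba4a*, an alpha tubulin (0.224), and *Id4*, an inhibitor of helix-loop-helix factors (0.353). *Tuba4a* was listed at 50.9, 17.1, 52.1 and 7.59 TPM in the same order of libraries.

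For *Ppp1r3c* the 3 nearest were *Bhlhe40*, a helix-loop-helix repressor linked to the clock (0.0948), *Junb*, an immediate early transcription factor (0.179), and *Acy3*, an aminoacylase (0.224). *Bhlhe40* was listed at 9.86, 12.6, 6.69 and 16.2 TPM. All 3 genes were lowest in desflurane 0 h, like *Ppp1r3c*. They were chosen for likeness to its pattern, so this match is no separate result. A likeness over 4 libraries describes these libraries and no more.

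**Figure D4:**
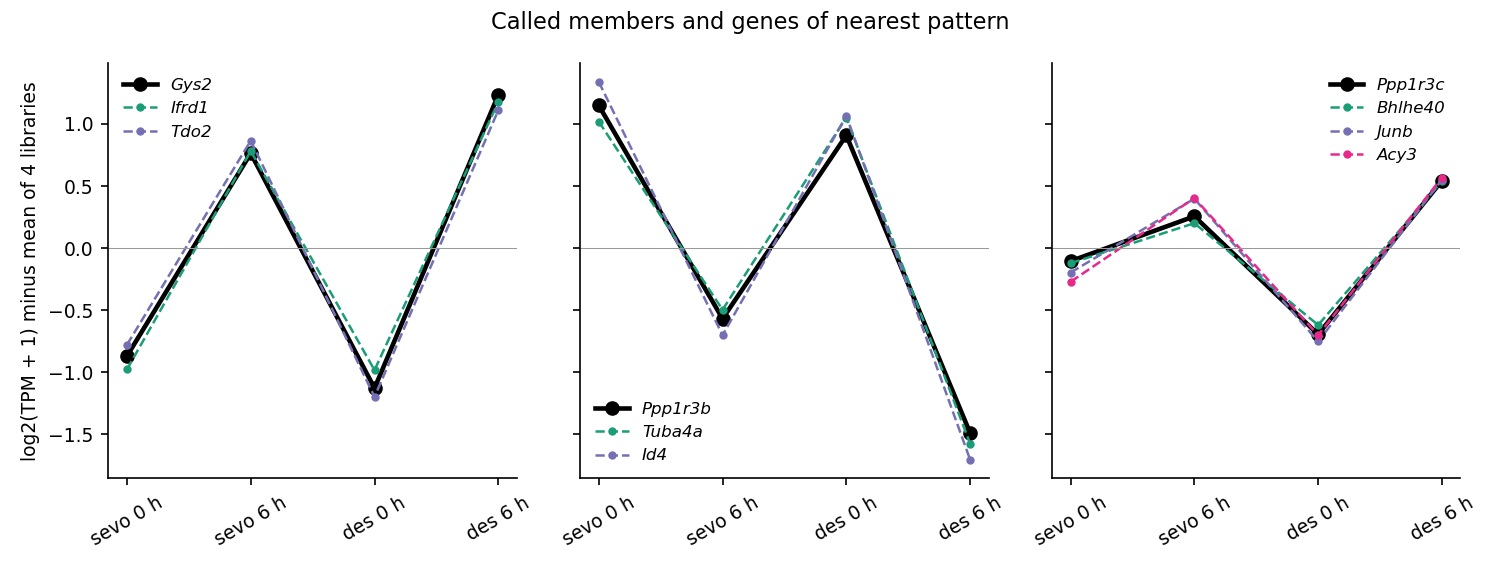
Centred log2(TPM + 1) in the 4 libraries for *Gys2*, *Ppp1r3b* and *Ppp1r3c* (bold) and genes among the 3 nearest to each; the lines only join the libraries of a gene, which have no order. *Gys2* and its neighbours were high at 6 h, *Ppp1r3b* and its neighbours low, and *Ppp1r3c* and its neighbours had their lowest values in desflurane 0 h.

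The forms of these enzymes known from other tissues were low. *Gys1*, the muscle synthase, was listed at 1.18 to 1.46 TPM, so that *Gys2* was at 19.7 and 15.1 times its level in the sevoflurane and desflurane controls and at 61.8 and 70.4 times at 6 h. *Pygm*, the muscle phosphorylase, was listed at 0.10 to 0.27 TPM and *Pygb*, the brain form, at 2.33 to 2.83. The muscle targeting subunit *Ppp1r3a* was listed at 0 in every library. The liver forms made up most of the synthase and phosphorylase transcripts.

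A wider list of 56 genes took in the regulators around these enzymes, of which 55 had rows. With sevoflurane 4 of 41 genes above the minimum were higher and 1 lower, and with desflurane 3 of 40 were higher and 3 lower, beside the shares over all genes given above. The medians over the 39 genes averaging a TPM of 2 or more were 0.06 and −0.16, beside 0.05 and −0.10 over all genes. None of the other glycogen enzymes, the phosphorylase kinase subunits or the remaining genes of protein phosphatase 1 was called with either agent.

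Of 6 genes of glucose phosphate entry and exit above the minimum, sevoflurane had 2 calls upward and 1 downward, and desflurane 1 in each direction. Over all genes, 5.04% were called higher and 3.71% lower with sevoflurane, and 4.1% and 5.55% with desflurane. The 6 genes had median changes of −0.52 and 0.11 (log2), beside 0.05 and −0.10 over all 8024 genes. With sevoflurane 4 of 6 changes were negative and with desflurane 3 of 6, beside 3523 and 5000 of all 8024. *Slc2a2*, the main hepatocyte glucose transporter, was listed at 113, 292, 151 and 285 TPM in sevoflurane 0 h and 6 h and desflurane 0 h and 6 h, in that order (changes 1.36 and 0.91), and was called with sevoflurane. *Slc37a4*, which carries glucose 6-phosphate into the endoplasmic reticulum, was listed at 85.1, 193, 120 and 176 TPM (1.17 and 0.55), and was also called with sevoflurane. *G6pc*, the glucose 6-phosphatase, was listed at 361, 258, 199 and 651 TPM, a change of −0.48 with sevoflurane and of 1.70 with desflurane, where it was called higher. Its controls differed by −0.85 (log2, desflurane minus sevoflurane), so the gap between agents includes a gap between their controls.

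**Figure D5:**
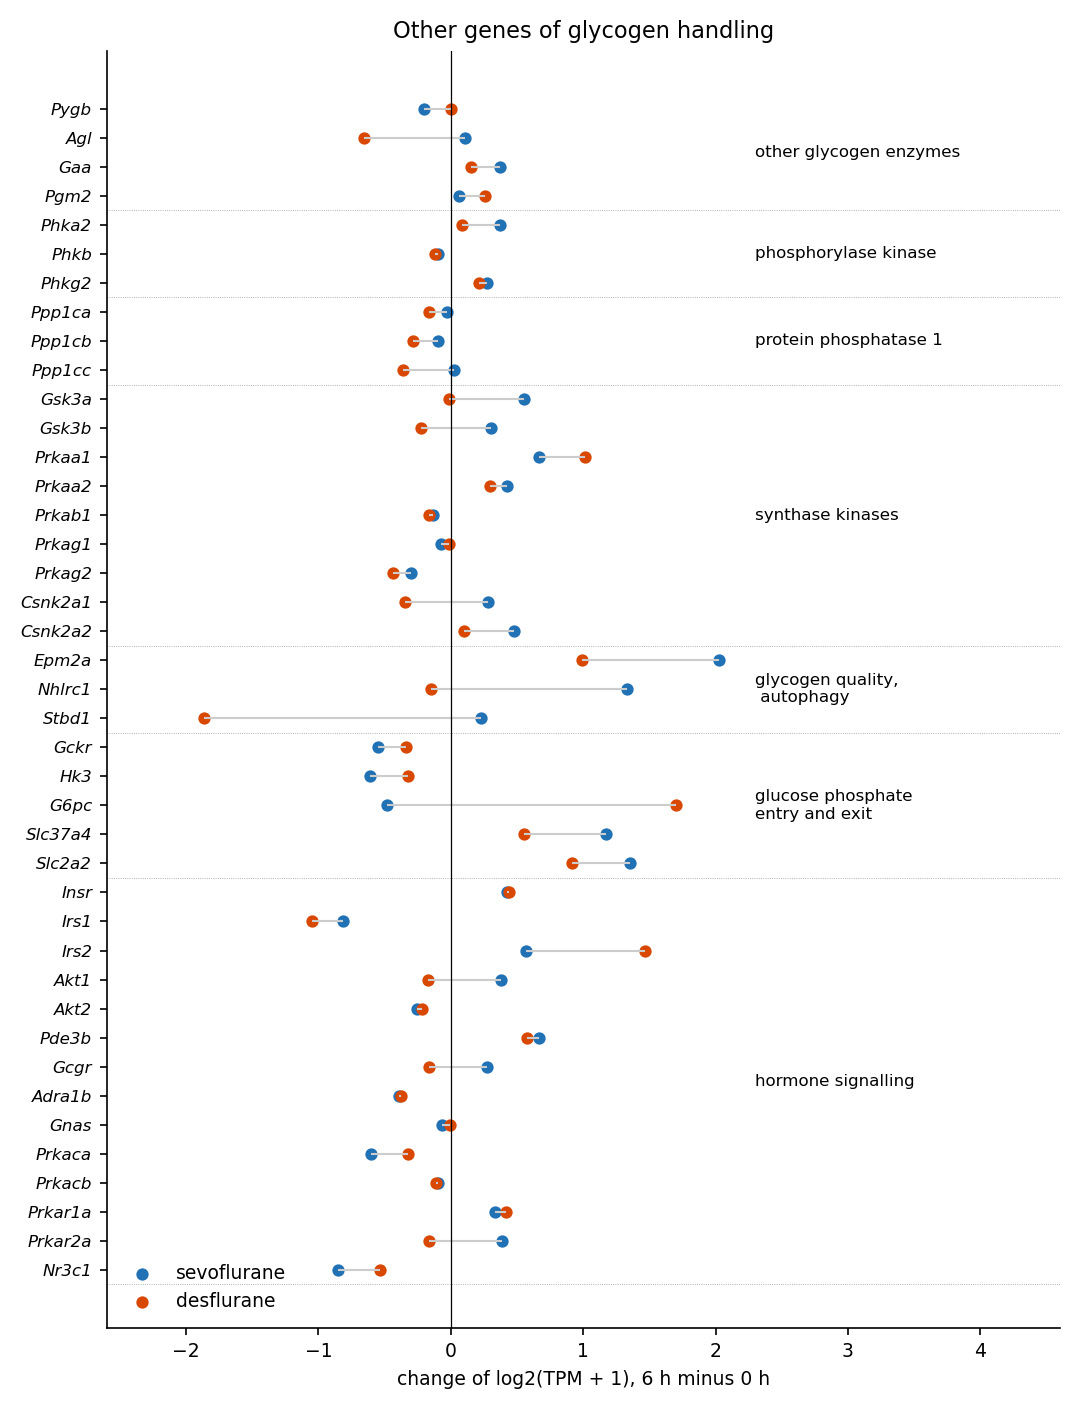
Change of log2(TPM + 1) from 0 h to 6 h with sevoflurane (blue) and desflurane (orange) for the wider list, grouped by role, 1 library a group. Shown are 38 of the 39 genes averaging a TPM of 2 or more and 3 less abundant ones that were called, *Epm2a*, *Nhlrc1* and *Irs2*. Most genes lie near 0, and *Stbd1*, *G6pc* and *Nhlrc1* have points on opposite sides of 0.

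The genes of glycogen quality control and autophagy were called in different directions. *Epm2a*, which encodes laforin, the phosphatase that removes phosphate from glycogen, was listed at 0.24, 4.08, 0.45 and 1.88 TPM in sevoflurane 0 h and 6 h and desflurane 0 h and 6 h, in that order, and was called higher with sevoflurane (change 2.03). *Nhlrc1*, which encodes malin, the ubiquitin ligase that works with laforin, was listed at 0.99, 4.02, 0.99 and 0.79 TPM and was called higher with sevoflurane (1.33). *Stbd1*, which links glycogen to autophagosomes, was listed at 30.6, 35.9, 57.8 and 15.2 TPM and was called lower with desflurane (−1.86). The low levels of *Epm2a* and *Nhlrc1*, below a TPM of 1 in both controls, make their folds imprecise, and the *Stbd1* controls differed by 0.90 (log2).

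Of the insulin signalling and kinase genes, few were called. *Irs1*, an adaptor of the insulin receptor, was listed at 6.61, 3.33, 7.59 and 3.14 TPM in the same order of libraries and was called lower with desflurane (−1.05, beside −0.82 with sevoflurane). *Irs2*, its relative that is prominent in liver, was listed at 0.66, 1.46, 0.50 and 3.15 TPM and was called higher with desflurane (1.47, beside 0.57). *Prkaa1*, a catalytic subunit of AMP-activated protein kinase, which phosphorylates glycogen synthase, was listed at 4.23, 7.28, 4.28 and 9.66 TPM and was called higher with desflurane (1.01, beside 0.66). *Irs1* was lower and *Irs2* higher at 6 h with either agent, with no overlap between times. *Irs2* was above a TPM of 2 in desflurane 6 h alone, so its folds are imprecise.

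In the limma test common to both agents, 7 of the 39 genes passed, beside 692 of all 8024 genes. Among them *Slc2a2* rose by 1.13 ± 0.14 (log2, SE, limma adjusted p = 0.000193). *Slc37a4* (0.86), *Prkaa1* (0.84) and *Pde3b* (0.62), a phosphodiesterase activated by insulin, rose as well. *Irs1* (−0.93) and *Nr3c1* (−0.69), the glucocorticoid receptor, fell. Without the variance trend 3 of the 39 genes passed, beside 440 of all 8024 genes. The limma adjusted p was then 0.070 for *Slc37a4*, 0.0524 for *Prkaa1*, 0.112 for *Pde3b* and 0.0927 for *Nr3c1*. Without the agent block *Pde3b* (limma adjusted p = 0.056) and *Nr3c1* (limma adjusted p = 0.0859) were also lost. *Prkaa1* (limma adjusted p = 0.0588) and *Pde3b* (limma adjusted p = 0.0582) were lost with the mean TPM minimum of 1. *Pde3b* was also lost with a pseudocount of 0.1 (limma adjusted p = 0.0512). *Nr3c1* was also lost with median-of-ratios scaling (limma adjusted p = 0.0605). *Irs1* (limma adjusted p = 0.0545) and *Prkaa1* (limma adjusted p = 0.0669) were lost with the mean TPM minimum of 5, while *Slc2a2* passed in all 7 alternatives. *G6pc*, with opposite signs in the agents, had an estimate of 0.61 ± 0.34 (limma adjusted p = 0.362).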

How the data were processed

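RNA from RNAlater-preserved liver was prepared (RNeasy Midi) and sequenced from TruSeq Stranded Total RNA Gold libraries, per the labels, which name HISAT2, SAMtools and StringTie (versions not given in the sources used here) and the build rn6. The authors deposited 1 StringTie gene abundance table per library. Each deposited TPM was handled as a score, since assembled loci fill the usual total of the column and named genes add to it. The deposited FPKM and the deposited coverage signal (mean depth per base, not scaled for library size) served to derive depth only. Read counts were not used here, and counting intervals are therefore not given. At a TPM of 2 the coverage was 4.72, 6.84, 6.90 and 7.28 in sevoflurane 0 h and 6 h and desflurane 0 h and 6 h, in that order.

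Libraries were grouped by their labels. Rows of a symbol were summed and rows spanning 200 bp or less left out. Changes were differences of log2(TPM + 1). The rule of size (TPM above 2, ratio above 2) gives no p-value. limma 3.58.1 in R 4.3.3 (eBayes with trend, two-sided, Benjamini-Hochberg) tested the common change. Scripts ran in Python 3.11.15 and were tested on simulated data. The genes named were all members, each gene of the wider list called with an agent, and the 3 genes nearest to each called member. *Pde3b*, *Nr3c1*, *Dbp* and the muscle and brain forms were named outside this rule, after their values were seen, and marker genes come from the marker lists. Some genes that the rule names are counted but not reported here. The members, the lists, the motifs and the tests were chosen with earlier results of these data known. Alternatives were other minimums, ratios, pseudocounts, scalings, controls and limma settings, and the values of assembled loci. Promoter sequences are from RefSeq (GRCr8).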

Additional observations from a re-analysis of the deposited data

Results flagged for a closer look

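The changes of *G6pc*, *Nhlrc1* and *Stbd1* had opposite signs with the agents, though in each gene the change with 1 agent alone passed the rule of size. The change with desflurane minus that with sevoflurane was 2.19 for *G6pc*, −1.48 for *Nhlrc1* and −2.09 for *Stbd1* (log2). With 1 library a group these differences were not tested. *Nhlrc1* was below a TPM of 2 in every library but sevoflurane 6 h, and the controls of *G6pc* and *Stbd1* differed by −0.85 and 0.90. With the controls exchanged, *G6pc* was above the control with both agents (258 against 199 TPM and 651 against 361) and *Stbd1* below it (35.9 against 57.8 and 15.2 against 30.6).

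Within the bounds of *Gbe1*, an assembled locus without a strand was listed in sevoflurane 6 h at 2.32 TPM, and no such locus was listed there in the other libraries. *Gbe1* itself stood at 97.8 TPM in that library.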

How the results depend on the processing

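Alternatives were compared by counts of genes, and no library could be left out of the comparisons within an agent, which hold 1 on each side. The labels carry no replicate numbers, and the agent was the only block used. *Gys2* and *Ppp1r3b* kept their direction and call with both agents in all alternatives run. Some of these could not change the outcome. The TPM minimums of the rule lay below the levels of both genes, and the assembled *Gys2* locus had the same value as the gene. No called change of a member turned its sign, but some small changes that were not called did. *Gyg1* with sevoflurane went from −0.03 to 0.27 on assembled loci, where its sevoflurane 0 h locus was in pieces. *Ugp2* with desflurane went from −0.18 to 0.02 with the other control. *Pygl* with desflurane went from −0.09 to 0.02 with median-of-ratios scaling. With a ratio of 1.5, 2 members were lower with sevoflurane. With desflurane 1 member was higher with a ratio of 3, with the other control and with the geometric mean of the controls. In limma, 1 member was higher and 1 lower without the agent block, with median-of-ratios scaling and without the trend, and 1 was lower with a mean TPM of at least 1 or at least 5. The genes called in limma numbered 692, 488 without the agent block and 440 without the trend, and those of the wider list 7, 5 and 3.

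In the wider list, the genes higher with sevoflurane numbered 2 with a TPM minimum of 5, a ratio of 3 or the other control, and 7 with no minimum or a ratio of 1.5. The genes lower with sevoflurane numbered 3 with no minimum, 5 with a ratio of 1.5, 4 with assembled loci, and 2 with median-of-ratios scaling, with the total taken without *Rn7sl1*, with the other control or with the geometric mean of the controls. With desflurane 5 were higher with no minimum or a ratio of 1.5, and lower were 6 with no minimum and 5 with a ratio of 1.5. The cause of these moves was not tested. Median-of-ratios scaling moved the median of all genes from 0.05 and −0.10 to −0.003 and −0.001, and that of the members to −0.26 and −0.05. A single shallow library behind the sevoflurane control limits every change with that agent.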

Other observations

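Each of the 8 members was also overlapped by a locus assembled from the reads on its own strand in all 4 libraries. The locus of largest overlap was compared. For *Gys2*, *Pygl*, *Ugp2*, *Pgm1* and *Ppp1r3c* the value of that locus was within 1.41% of the value listed for the gene. It differed by up to 22.1% for *Gyg1*, whose changes were then 0.27 and −0.17 (log2), by up to 14.3% for *Gbe1*, and by up to 12.7% for *Ppp1r3b*, whose changes were then −1.57 and −2.11. In sevoflurane 0 h *Gyg1* was assembled in separate pieces, at 6.99 and 4.50 TPM. Only the longer piece, at 4.50 TPM, entered the comparison, so the 0.27 rests on part of the gene.

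*Gbe1* was assembled as 3 pieces in every library. The changes of the pieces were −0.82, −0.60 and −1.18 with sevoflurane and −0.29, −0.48 and −0.31 with desflurane (log2). The assembled *Ugp2* locus reached between 731 and 761 bases beyond the 5′ end listed for the gene, in all 4 libraries.

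An assembled locus opposite to *Pygl* was listed in sevoflurane 0 h alone, at 1.11 TPM.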
